A study of Equus caballus with 45 samples.

Results

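Immune checkpoint genes were followed through equine mesenchymal stromal cells (MSC) activated with innate immune agonists and through synoviocytes, chondrocytes and macrophages given the conditioned medium (CM) of such MSC. The group holds 8 genes, LAG3, CD274, PDCD1LG2, HAVCR2, CD276, NECTIN2, PVR and VSIR, out of 20881 protein coding genes in each count table. Of the 8, 7 were listed under their symbol. PVR was not, and it was not analysed here. The group was selected on measured values of these data, namely the level of LAG3 in MSC with the STING agonist and that of PDCD1LG2 in macrophages. Values of the members in those comparisons are therefore given as a description. Where a count of genes past a threshold includes them, that was fixed by the choice and nothing is read from it.

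Immune checkpoints are pairs of surface proteins that dampen T cell and NK cell responses. CD274 (PD-L1) and PDCD1LG2 (PD-L2) are the ligands of the inhibitory receptor PD-1, and CD274 is a textbook target of interferon signalling. LAG3 is an inhibitory receptor of activated T and NK cells that binds MHC class II and FGL1, and HAVCR2 (TIM-3) is an inhibitory receptor of T cells and myeloid cells. CD276 (B7-H3) and VSIR (VISTA) are further proteins of the B7 family, NECTIN2 is an adhesion protein that engages TIGIT, PVRIG and CD226, and PVR is its relative. MSC restrain T cells in culture, and PD-1 ligands are among the proteins discussed for this property.

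The series holds 45 RNA libraries. Bone marrow MSC gave 12, with the donors PC, 99 and 92 (n = 3) under each of no treatment, a TLR3 agonist (poly I:C), a STING agonist (2′3′-cGAMP) and a label CpG, which the methods do not describe. The other 33 came from synoviocytes of passage 2, from chondrocytes expanded and then re-differentiated, and from macrophages grown out of blood monocytes with M-CSF, all from healthy horses, with 11 libraries each. In each of these cell types, 9 libraries received IL-1β plus TNF-α and medium from MSC that were resting or activated by way of TLR3 or STING (resting MSC-CM, TLR-MSC-CM and STING-MSC-CM) of the donors PC, ORC and AG1 (n = 3 each), 1 library received the cytokines only and 1 had no addition. These single libraries also carry a donor name in the labels, PC for the synoviocytes with cytokines and ORC for the other 5, although no MSC medium was given. The MSC donors were horses of both sexes, aged 3 to 4 years, and the methods speak of 3 horses where the labels name 5 donors. Each joint cell type came from 1 horse, so that cell type and horse cannot be told apart, and the replicates are the MSC donors of the medium. MSC were activated for 2 h. Medium was used at a ratio of 1:3 for 24 h and cells were then kept for a further 24 h. Agonists were used at 10 ng/ml by the labels, whereas the methods give micrograms, and the cytokines at 10 ng/ml for macrophages and 20 ng/ml for synoviocytes by the labels.

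Total counts per library ran from 23525704 to 54103873 with a median of 31660884. Levels are CPM, read counts scaled to library size with TMM factors computed within each cell type. Differences in RNA composition between cell types were thus not scaled out of the levels. The fits across cell types with resting MSC-CM used factors over all 3 types. A count of 3, taken as the floor of detection, was 0.0555 to 0.128 CPM depending on the library. The intervals and floors cover counting error only. Some libraries stood apart. The TLR3 agonist library of MSC donor 92 showed no rise over 54 interferon-stimulated genes (mean log2 difference from its untreated library −0.0962, against 3.23 in donor 99 and 4.49 in donor PC). The chondrocyte libraries with medium of donor ORC had 18.6% of genes above and 18.5% below every library of the other medium donors, over all 3 media. Marker genes set the macrophage cultures apart from the other 3 cell types, and chondrocytes only in part. The macrophage cultures also held T and NK cell markers, as given below. Summed macrophage markers were 9775 to 13600 CPM in macrophages and at most 328.9 CPM elsewhere, and summed stromal markers were 46260 to 124400 CPM in the other 3 cell types and at most 493.4 CPM in macrophages. Summed chondrocyte markers did not set chondrocytes apart (159.5 to 734.2 CPM, against 144.2 to 337.8 CPM in synoviocytes and 212.2 to 860.5 CPM in MSC). Of the list, ACAN and COMP did. ACAN was 6.06 to 96.7 CPM in chondrocytes, at most 3.47 in synoviocytes and at most 0.561 in MSC. COMP was 15.97 to 162.8 CPM, against at most 1.9 and 3.41. The other listed markers overlapped between chondrocytes and synoviocytes or MSC. Among them, COL2A1 did not pass 0.384 CPM in chondrocytes.

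The 7 genes fell into 2 groups by level across the cell types. LAG3, CD274, PDCD1LG2 and HAVCR2 were abundant only in the macrophage cultures among these 4 cell types. LAG3 ran from 41.6 to 82.1 CPM in macrophages (median 49.5), from 0 to 14.8 in MSC (median 0.399), from 0.0379 to 0.776 in chondrocytes (median 0.263) and from 0.0226 to 0.379 in synoviocytes (median 0.215). CD274 ran from 152.6 to 332.2 CPM in macrophages (median 237.9), and its highest value elsewhere was 2.35 CPM in an MSC library. PDCD1LG2 ran from 38.4 to 80.4 CPM in macrophages (median 56.0) and did not pass 0.301 CPM in any other library. HAVCR2 ran from 3.09 to 10.9 CPM in macrophages, and all other libraries held 0 to 2 counts. Macrophages thus stood above all other libraries for these 4 genes, while MSC, synoviocytes and chondrocytes overlapped in each of them.

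CD276, NECTIN2 and VSIR were found in all 45 libraries. CD276 was 137.0 to 240.5 CPM in macrophages (median 169.7), 74.1 to 163.9 in MSC (median 134.7), 67.9 to 78.3 in synoviocytes (median 72.7) and 56.4 to 87.7 in chondrocytes (median 64.7). Macrophages lay above all synoviocytes and chondrocytes, and MSC overlapped with each of the other cell types. NECTIN2 was 62.5 to 189.3 CPM in macrophages, above every other library, and overlapped among synoviocytes (13.8 to 28.4), chondrocytes (6.21 to 33.6) and MSC (5.79 to 26.5). VSIR had the opposite order. It was lowest in macrophages (13.3 to 20.5 CPM), below all libraries of synoviocytes (32.7 to 56.3) and chondrocytes (32.3 to 65.4), while MSC spanned all of these (4.67 to 84.0). VSIR shares its locus with CDH23 in a horse annotation of another assembly, and whether the counting used strand is not stated, so part of its reads may belong to either gene.

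**Figure D1:**
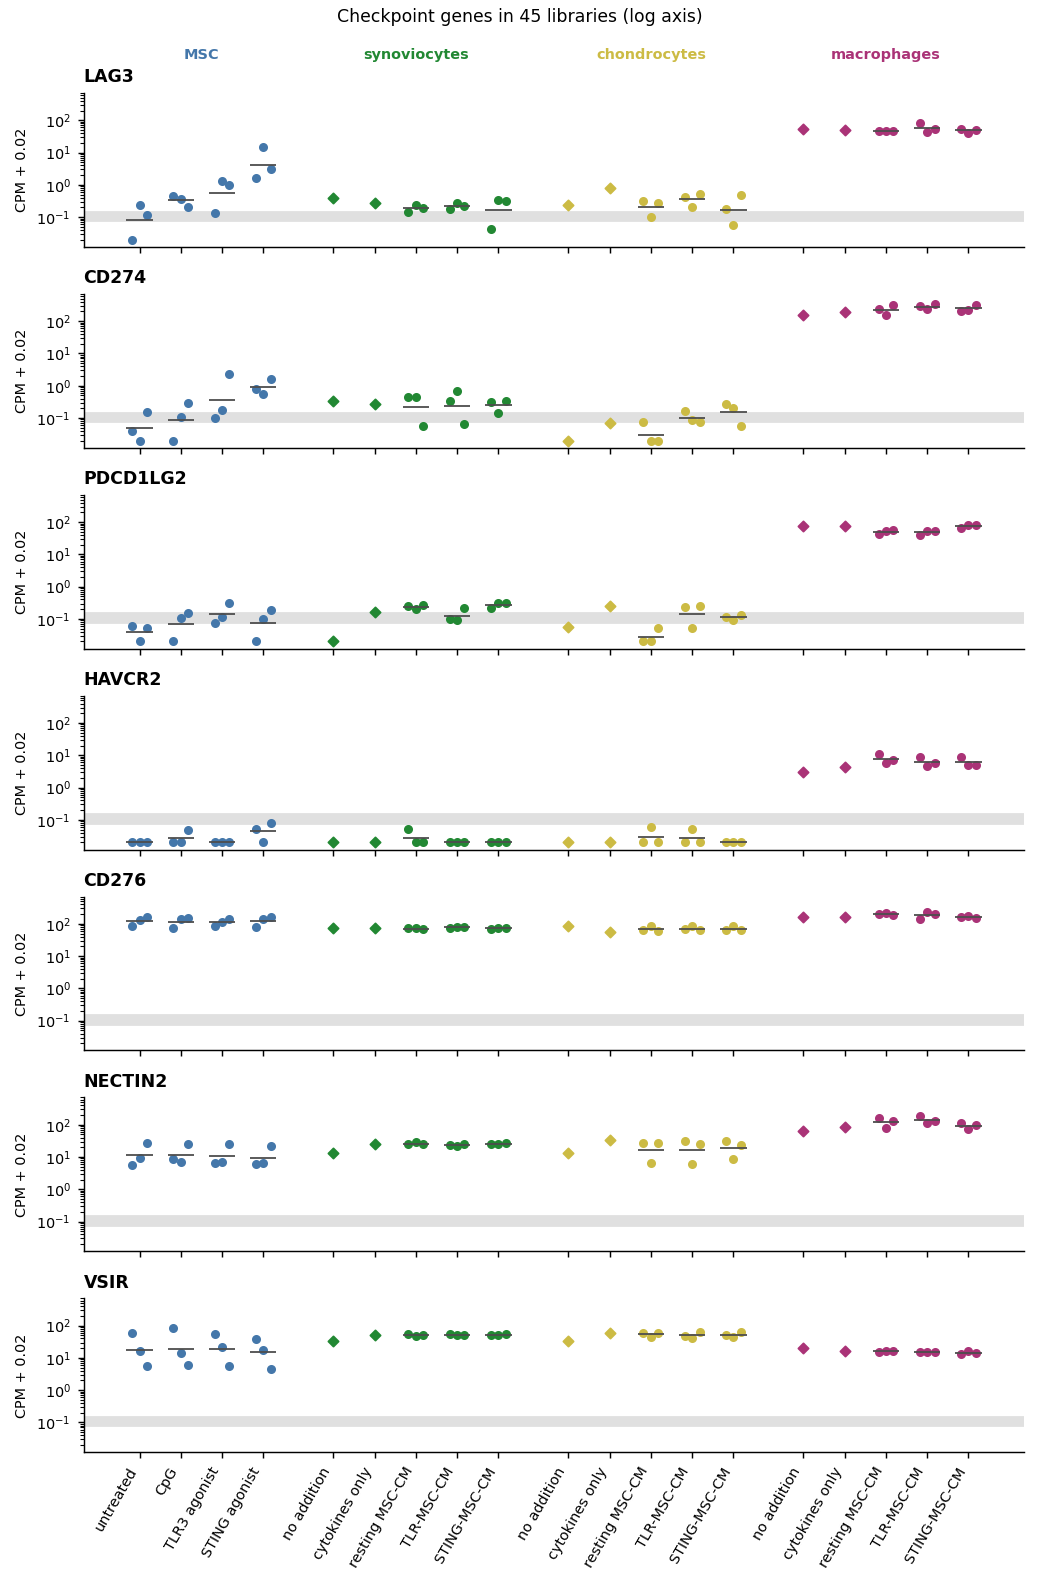
CPM plus 0.02 on a log axis for the 7 genes in all 45 libraries, with cell types in colour, circles for libraries of 3 donors, diamonds for single libraries, lines for geometric means of 3 and a grey band for the floor of 3 counts (0.0555 to 0.128 CPM). LAG3, CD274, PDCD1LG2 and HAVCR2 lie far above the band in macrophages only, apart from LAG3 and CD274 in activated MSC, whereas CD276, NECTIN2 and VSIR are above it in all libraries.

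In MSC, 2 checkpoint genes were higher after activation, LAG3 and CD274. LAG3 had 0, 8 and 3 counts in the untreated libraries of donors 92, 99 and PC (0, 0.224 and 0.0963 CPM). With the TLR3 agonist it had 4, 55 and 47 counts (0.11, 1.26 and 0.944 CPM), and with the STING agonist 50, 572 and 104 counts (1.67, 14.8 and 2.98 CPM). All 3 STING agonist libraries were above all untreated and all TLR3 agonist libraries, and donor 99 was highest in both activated groups. The means were 0.107 ± 0.113 CPM untreated, 0.770 ± 0.592 with the TLR3 agonist and 6.48 ± 7.23 with the STING agonist (SD, n = 3). The log2 fold change of LAG3 with the STING agonist was 5.94 (SE 1.5) against untreated MSC and 3.06 (SE 1.28) against the TLR3 agonist, the same direction in 3 of 3 donors. Without the STING agonist library of donor 99 these were 4.44 and 1.59, and without the untreated library of donor 99 the first was 7.16. The LAG3 log2 fold change with the TLR3 agonist was 2.88 (SE 1.35, unadjusted p = 0.0641, adjusted p = 1 by edgeR), higher in 3 of 3 donors, with overlap at the low library of donor 92. CpG libraries held 18, 12 and 7 counts of LAG3, which put CpG above untreated MSC by 1.64 on the log2 scale (SE 1.23, adjusted p = 1 by edgeR).

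CD274 was at 1, 0 and 4 counts in untreated MSC of donors 92, 99 and PC. It had 3, 7 and 117 counts with the TLR3 agonist (0.0828, 0.160 and 2.35 CPM) and 24, 21 and 56 counts with the STING agonist (0.800, 0.543 and 1.61 CPM). The level with the STING agonist was thus above every untreated library in all donors, whereas with the TLR3 agonist it was carried by donor PC. The log2 fold change with the TLR3 agonist was 4.13 (SE 1.56, unadjusted p = 0.0277, adjusted p = 1 by edgeR), and it was 1.33 when donor PC was left out of the TLR3 agonist group. With the STING agonist it was 4.31 (SE 1.57), between 3.74 and 6.10 over all settings tried. That contrast was used in the choice of the group, so nothing is read from this range. Between the agonists CD274 differed by 0.18 on the log2 scale (SE 1.30, 95% interval −2.36 to 2.72, adjusted p = 1 by edgeR), a difference that came to 2.97 when donor PC was left out in the same way. CpG libraries held 0, 3 and 10 counts.

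The remaining members stayed near their untreated level or near the floor in MSC. PDCD1LG2, the other PD-1 ligand, held at most 2 counts untreated, 2, 4 and 15 counts with the TLR3 agonist, 0, 3 and 6 with the STING agonist and 0, 3 and 5 with CpG (donors 92, 99 and PC). The TLR3 agonist mean was at least 1.84-fold above the floor of the untreated libraries (adjusted p = 1 by edgeR). HAVCR2 held at most 2 counts in any MSC library and was not tested. Fold changes of CD276, NECTIN2 and VSIR ran from −0.39 to 0.34 on the log2 scale over both agonists and CpG against untreated MSC, each smaller than its SE.

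Calls were counted by 2 rules, an adjusted p under 0.05 over all genes tested and the thresholds of the study, an unadjusted p of at most 0.05 with a log2 fold change of at least 2. No gene reached the adjusted threshold in any of the 13 comparisons of conditions within a cell type (0% of 14304 to 15099 genes tested, edgeR without a donor term), while 31 to 1323 genes had an unadjusted p under 0.05. DESeq2, also without a donor term, called genes in 6 of the 13 comparisons, at most 93 genes. The fit with the MSC donor as a block called genes in 5, at most 412 genes. By the thresholds of the study, 0.719% of genes were higher with the TLR3 agonist, and of the 6 members tested 1 was, CD274. LAG3 passed too, for 2 of 6, in DESeq2, with the donor block, over all 12 MSC libraries and without the TLR3 agonist library of donor 92. With CpG 0.113% of genes were higher, none of them a member. In the contrasts of the STING agonist, on which the genes were chosen, the shares are a description only, 0.908% of genes higher than in untreated MSC (2 members, LAG3 and CD274) and 0.0874% higher than with the TLR3 agonist (1 member, LAG3).

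**Figure D2:**
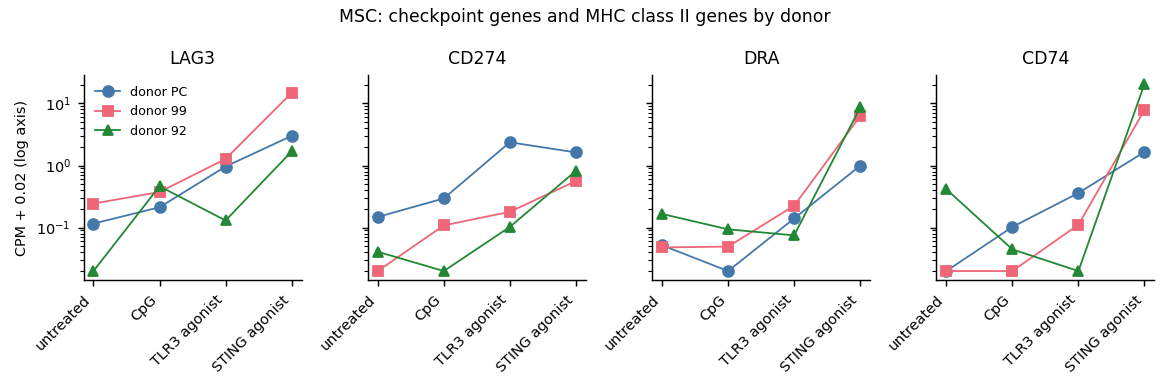
CPM plus 0.02 on a log axis for LAG3, CD274 and the MHC class II genes DRA and CD74 in MSC, with 1 line for each of the donors PC, 99 and 92 over the 4 conditions. LAG3, DRA and CD74 are highest with the STING agonist in all 3 donors, and CD274 is highest with the TLR3 agonist in donor PC only.

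Ligands of LAG3 were measured in the same MSC. DRA, a chain of MHC class II, had 7, 1 and 1 counts untreated in donors 92, 99 and PC, 2, 9 and 6 with the TLR3 agonist, and 258, 242 and 34 with the STING agonist (8.60, 6.26 and 0.975 CPM). CD74, the invariant chain that escorts MHC class II, had 19, 0 and 0 counts untreated, 0, 4 and 17 with the TLR3 agonist, and 618, 303 and 57 with the STING agonist. Both were above all untreated and TLR3 agonist libraries in all 3 donors, with donor 92 highest, whereas LAG3 was highest in donor 99. DRA was higher by 6.16 (SE 1.08) against untreated MSC and by 5.33 (SE 1.02) against the TLR3 agonist on the log2 scale, and CD74 by 6.15 (SE 1.80) and 6.05 (SE 1.79), all 4 past the thresholds of the study and none past the adjusted threshold (adjusted p = 1 by edgeR). Of 10 LAG3 partner genes tested, these were the only 2 past the thresholds of the study, and the list median was 0.37 against 0.01 over all genes. FGL1, the soluble LAG3 ligand, held at most 2 counts in MSC, and CIITA, the master regulator of MHC class II, at most 3.

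Interferon-stimulated genes and the CD274 regulator IRF9 were higher with both agonists. Among 22 regulators of PD-L1 tested, IRF9, which carries the interferon signal, passed the thresholds of the study with the TLR3 agonist (2.60, SE 0.71) and with the STING agonist (3.07, SE 0.72). Of 54 interferon-stimulated genes, 45 passed with the TLR3 agonist (list median 3.63) and 48 with the STING agonist (list median 3.85), none with CpG and none between the agonists. The mean log2 rise over this list was 3.41, 3.98 and 4.22 with the STING agonist in donors 92, 99 and PC. CD274 was highest in donor PC under both agonists, and the mean over the interferon-stimulated genes rose most in the same donor. Between donors 92 and 99 the order was reversed with the STING agonist. CD274 was higher in donor 92 and the list mean rose more in donor 99. With the TLR3 agonist donor 99 was above donor 92 in both. None of 16 further checkpoint ligands and of 9 checkpoint receptors tested in MSC passed the thresholds of the study with either agonist.

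Of 18 markers of T and NK cells, which express LAG3, 10 had at most 3 counts in every MSC library. The list summed to 1.83 to 6.74 CPM over the 12 MSC libraries (3.34, 1.85 and 3.6 CPM untreated, 2.26, 4.34 and 6.21 CPM with the TLR3 agonist and 2.10, 6.18 and 6.74 CPM with the STING agonist in donors 92, 99 and PC), and CD3D, CD3G and CD2 had no count in any of them. The sum was thus higher with both agonists in donors 99 and PC and lower in donor 92. NKG7 (1.47 to 4.47 CPM) and CD7 (at most 2.51 CPM) reached the highest values of the list in MSC. PTPRC, the pan-leukocyte antigen CD45, had 1, 0 and 1 counts with the STING agonist. Summed macrophage markers moved with activation, from 12.5 to 17.6 CPM untreated to 52.5, 328.9 and 190.9 CPM with the STING agonist, of which CD68, a lysosomal protein, made up 50.8, 326.7 and 189.7 CPM. The part of T cells, NK cells or macrophages in the LAG3 values was not tested. In bulk RNA, more cells of a type and more RNA per cell cannot be told apart.

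CD276, NECTIN2 and VSIR separated the MSC donors. VSIR was 39.2 to 84.0 CPM over the 4 libraries of donor 92, 14.4 to 21.6 in donor 99 and 4.67 to 6.14 in donor PC. CD276 had the reverse order, with 74.1 to 87.3 CPM in donor 92, 114.8 to 139.5 in donor 99 and 145.1 to 163.9 in donor PC. NECTIN2 was 22.6 to 26.5 CPM in donor PC and 5.79 to 9.03 CPM in the other donors, which overlapped. Donors held 94.9% to 96.0% of the variance of log2 values of these 3 genes in MSC and conditions 1.21% to 1.56%. For LAG3 the shares were 13.2% for donors and 69.6% for conditions, and for CD274 32.4% and 44.1%. Of all genes, 8.09% separated the 3 donors without overlap over all 4 conditions, and of the members CD276 and VSIR did.

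**Figure D3:**
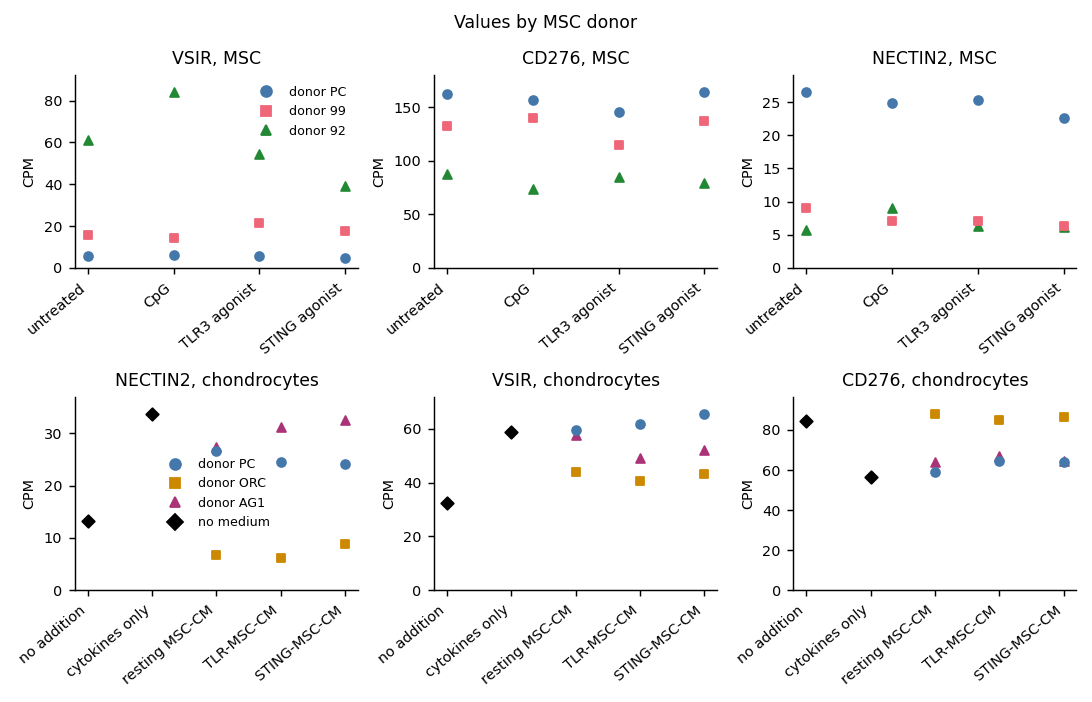
CPM of VSIR, CD276 and NECTIN2 in MSC (upper row) and in chondrocytes (lower row) by condition, with colours and shapes for the MSC donors and black diamonds for single libraries without medium. In MSC the donors keep their order for VSIR and CD276 over the 4 conditions, with VSIR of donor 92 between 39.2 and 84.0 CPM, and in chondrocytes the 3 libraries with medium of donor ORC lie apart from those of PC and AG1.

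In chondrocytes the same genes followed the donor of the medium. NECTIN2 was 6.65, 6.21 and 8.83 CPM with the resting, TLR and STING media of donor ORC, against 27.4, 31.2 and 32.4 with media of AG1 and 26.7, 24.4 and 24.1 with media of PC. VSIR was 40.7 to 44.0 CPM with ORC media and 49.0 to 65.4 with the others, and CD276 was 85.0 to 87.7 CPM with ORC media and 59.2 to 66.8 with the others. The ORC libraries were thus apart from the rest in 3 of 3 media for all 3 genes, beside the 18.6% and 18.5% of genes given above. The chondrocytes without any addition had NECTIN2 at 13.2 CPM, VSIR at 32.3 and CD276 at 84.7, and those with cytokines only had 33.6, 58.8 and 56.4 CPM. Both of these libraries carry the name ORC in the labels. In each of these genes the libraries with ORC medium were nearer to the library without addition, and the AG1 and PC libraries to the library with cytokines. Summed chondrocyte markers showed the same split, with 497.2 to 648.6 CPM in the ORC libraries, 734.2 CPM without addition, 163.4 CPM with cytokines only and 159.5 to 246.4 CPM with media of AG1 and PC. The part of the donor, of the handling of these wells and of the cytokines in this split cannot be told apart.

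Cytokines without MSC medium were compared in 1 library each. NECTIN2 was higher with IL-1β plus TNF-α than without addition in all 3 joint cell types, at 25.8 CPM (95% Poisson interval 23.9 to 27.8) against 13.8 (12.5 to 15.1) in synoviocytes, 33.6 (31.8 to 35.4) against 13.2 (11.9 to 14.7) in chondrocytes and 87.1 (83.4 to 90.9) against 62.5 (59.4 to 65.7) in macrophages, a ratio of 1.87, 2.54 and 1.39. VSIR was higher with cytokines in synoviocytes (ratio 1.59) and chondrocytes (ratio 1.82) and lower in macrophages (ratio 0.825). CD276 was lower with cytokines in chondrocytes (ratio 0.666), with ratios of 1.01 in synoviocytes and 1.0 in macrophages. In chondrocytes LAG3 had 31 counts with cytokines and 6 without, a ratio of 3.5, and PDCD1LG2 had 9 and 1. In synoviocytes PDCD1LG2 had 4 counts with cytokines and none without. Past 2-fold either way were 1 member in synoviocytes (PDCD1LG2) beside 11.6% of all genes, 3 in chondrocytes (LAG3, PDCD1LG2 and NECTIN2) beside 17.5% and 0 in macrophages beside 7.45%. These are single libraries with no replicate check.

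Macrophages held the highest levels of LAG3, CD274, PDCD1LG2, HAVCR2 and NECTIN2. PDCD1LG2 was 42.7, 53.4 and 56.0 CPM with resting MSC-CM of donors AG1, ORC and PC, 38.4, 52.6 and 54.2 CPM with TLR-MSC-CM, and 67.8, 79.3 and 80.4 CPM with STING-MSC-CM. The single libraries had 74.6 CPM with cytokines only and 76.4 CPM without addition. The 3 STING-MSC-CM libraries and both libraries without medium were above all 6 libraries with resting MSC-CM or TLR-MSC-CM. On the log2 scale STING-MSC-CM was higher by 0.58 (SE 0.14) than resting MSC-CM and by 0.64 (SE 0.14) than TLR-MSC-CM, in 3 of 3 donors, and TLR-MSC-CM differed from resting MSC-CM by −0.06 (SE 0.14). Leaving out any library kept the first between 0.47 and 0.66 and the second between 0.52 and 0.74. The gene was chosen on macrophage values, so these ranges are a description and nothing is read from their stability.

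CD276 showed the mirror of this pattern against resting MSC-CM, but not against TLR-MSC-CM. It was 207.7, 219.7 and 194.8 CPM with resting MSC-CM of AG1, ORC and PC and 158.9, 169.7 and 156.0 CPM with STING-MSC-CM, without overlap, and the libraries without medium were at 161.8 CPM with cytokines and 161.7 CPM without. TLR-MSC-CM gave 137.0, 240.5 and 200.6 CPM, a spread wider than that of either other group. Its AG1 library was below all STING-MSC-CM libraries and both libraries without medium. The log2 difference of STING-MSC-CM from resting MSC-CM was −0.36 (SE 0.16), lower in 3 of 3 donors. NECTIN2 was lower with STING-MSC-CM than with TLR-MSC-CM in 3 of 3 donors (115.1, 71.7 and 99.98 CPM against 189.3, 110.1 and 128.4 CPM), a log2 difference of −0.59 (SE 0.29) with overlap between the groups. It was also lower than with resting MSC-CM (161.1, 81.4 and 127.6 CPM) in each donor.

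LAG3 in macrophages was 47.7, 45.7 and 47.8 CPM with resting MSC-CM (AG1, ORC and PC), 82.1, 44.6 and 52.8 with TLR-MSC-CM and 54.4, 41.6 and 51.8 with STING-MSC-CM, and 49.5 with cytokines only and 52.1 without addition. It was flat apart from the TLR-MSC-CM library of donor AG1, and its log2 fold change with TLR-MSC-CM of 0.36 (SE 0.20) was 0.04 without that library. The same library had the highest summed T and NK cell markers, 1221 CPM against 767.5 to 921.0 CPM in the other 10. All 18 of these markers were above the floor in the macrophage cultures, CD3E at 61.2 to 122.1 CPM, and so were the PD-1 gene PDCD1 (13.3 to 26.6 CPM), TIGIT (24.0 to 35.3 CPM) and CD96 (27.6 to 45.9 CPM), which T and NK cells express. Of 9 dendritic cell markers, CCR7 (129.0 to 360.6 CPM), IRF4 (65.8 to 204.2 CPM), BATF3 (29.2 to 47.8 CPM) and LAMP3 (10.7 to 25.6 CPM) were the highest in macrophage cultures, while CLEC9A and CD1C had at most 3 counts. FLT3 was 2.85 to 6.92 CPM there and XCR1 had at most 7 counts. ZBTB46, at 2.072 to 3.165 CPM, overlapped with chondrocytes (1.54 to 4.705 CPM). The list summed to 258.6 to 617.6 CPM and was highest in the same TLR-MSC-CM library of AG1. Any part of T, NK or dendritic cells in the macrophage values of LAG3, CD274 and PDCD1LG2 was not tested.

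**Figure D4:**
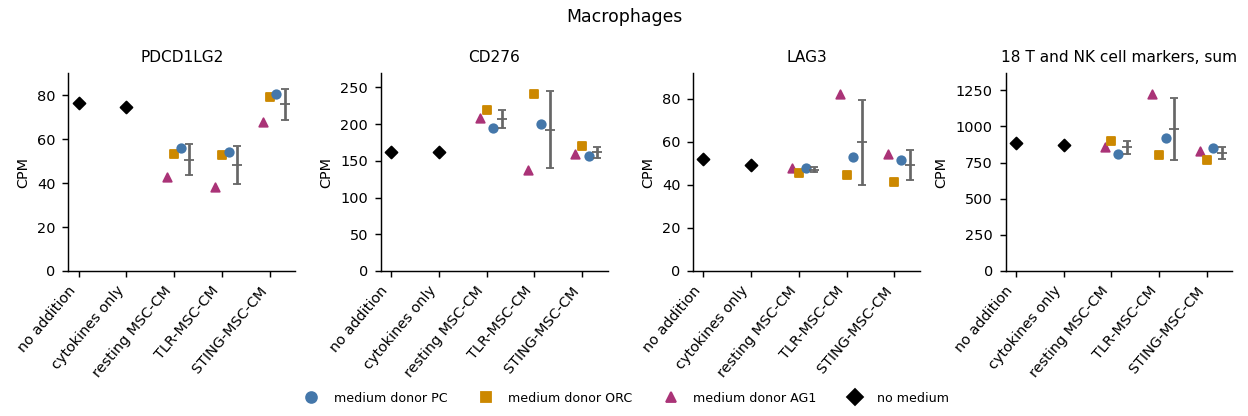
CPM of PDCD1LG2, CD276, LAG3 and the sum of 18 T and NK cell markers in 11 macrophage libraries by condition, with shapes for the medium donor, diamonds for single libraries without medium and bars for mean ± SD of 3. The 3 STING-MSC-CM libraries of PDCD1LG2 lie between 67.8 and 80.4 CPM, above the 6 with resting MSC-CM or TLR-MSC-CM, and the TLR-MSC-CM library of donor AG1 is highest both for LAG3 (82.1 CPM) and for the markers (1221 CPM).

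CD274 and HAVCR2 varied more between donors of the medium (64.1% and 86.7% of the variance of log2 values) than between media (17.3% and 11.6%) in macrophages. CD274 was 239.3, 152.6 and 309.3 CPM with resting MSC-CM (AG1, ORC and PC), 290.0, 237.9 and 332.2 with TLR-MSC-CM and 213.1, 229.9 and 315.5 with STING-MSC-CM, highest with medium of PC in each. Its log2 fold changes were 0.30 (SE 0.25) with TLR-MSC-CM and 0.11 (SE 0.25) with STING-MSC-CM. HAVCR2 was highest with medium of AG1 in each (10.9, 8.62 and 9.11 CPM) and had log2 fold changes of −0.31 (SE 0.33) and −0.30 (SE 0.33). VSIR ran from 13.3 to 16.8 CPM over the 9 libraries, with −0.09 (SE 0.11) and −0.17 (SE 0.11). No member passed the thresholds of the study in macrophages, where 0.286% of genes were higher with TLR-MSC-CM, 0.233% with STING-MSC-CM and 0.226% with STING-MSC-CM against TLR-MSC-CM. None of the listed further checkpoint ligands (21 tested), checkpoint receptors (22), PD-L1 regulators (22), LAG3 partners (11) and interferon-stimulated genes (54) did either.

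**Figure D5:**
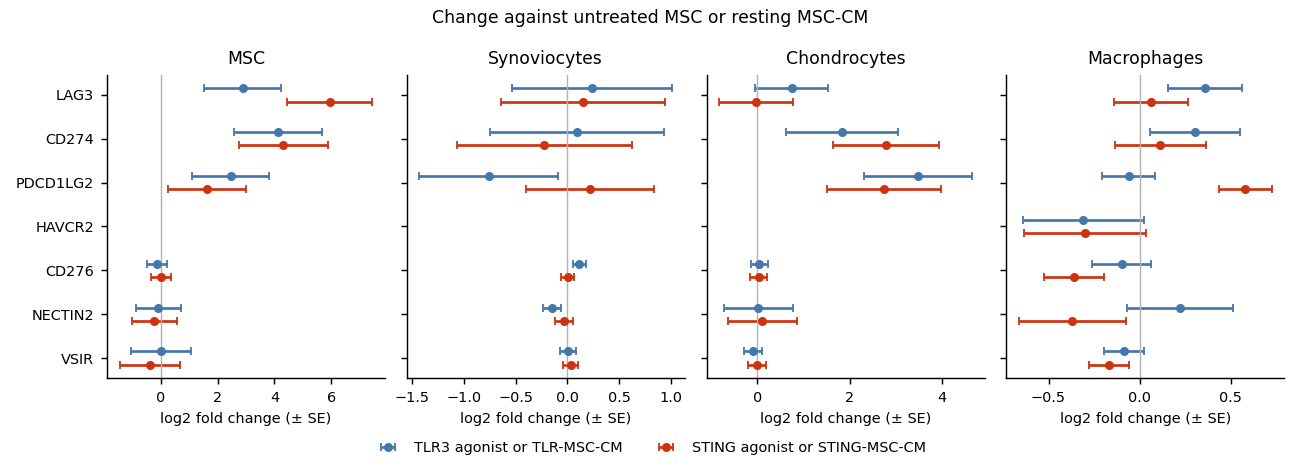
log2 fold changes (± SE) of the members in MSC, synoviocytes, chondrocytes and macrophages, blue for the TLR3 agonist or TLR-MSC-CM and red for the STING agonist or STING-MSC-CM, each against untreated MSC or resting MSC-CM, with a separate horizontal scale in each panel. LAG3 at 5.94 and CD274 at 4.31 in MSC with the STING agonist lead, and the macrophage values lie within −0.37 to 0.58, where the red point of PDCD1LG2 is furthest from 0, and the large chondrocyte values are fitted against resting libraries at the floor.

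Synoviocytes held few counts of the PD-1 ligands and of LAG3, and no member passed either rule there. Over all 11 libraries LAG3 had 1 to 12 counts, CD274 1 to 18 and PDCD1LG2 0 to 9. PDCD1LG2 had 7, 5 and 7 counts with resting MSC-CM (AG1, ORC and PC), 2, 2 and 9 with TLR-MSC-CM and 9, 7 and 8 with STING-MSC-CM. TLR-MSC-CM differed from resting MSC-CM by −0.76 on the log2 scale for this gene (SE 0.67, adjusted p = 0.695 by edgeR). CD276 was 74.2, 72.5 and 67.9 CPM with resting MSC-CM and 76.8, 78.3 and 77.2 CPM with TLR-MSC-CM, without overlap, by 0.11 on the log2 scale (SE 0.06, adjusted p = 0.554 by edgeR). Among all genes 0.261% were higher with TLR-MSC-CM, 0.178% with STING-MSC-CM and 0.247% with STING-MSC-CM against TLR-MSC-CM by the thresholds of the study. The highest CD274 count, 18, came with TLR-MSC-CM of ORC, the library that also had the largest rise over the interferon-stimulated genes among those with TLR-MSC-CM (mean log2 difference 0.828, against 0.0352 and 0.0436 for the other donors). No further checkpoint ligand (13 tested), checkpoint receptor (6), PD-L1 regulator (22) or LAG3 partner (10) passed the thresholds of the study in synoviocytes, and 1 of 53 interferon-stimulated genes did, with TLR-MSC-CM.

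In chondrocytes both PD-1 ligands were at the floor with resting MSC-CM and reached at most 12 counts with activated media. CD274 had 2, 0 and 0 counts with resting MSC-CM of AG1, ORC and PC, 4, 2 and 3 with TLR-MSC-CM and 11, 5 and 1 with STING-MSC-CM. PDCD1LG2 had 0, 0 and 1 counts with resting MSC-CM, 6, 1 and 12 with TLR-MSC-CM and 4, 2 and 3 with STING-MSC-CM. The mean of CD274 with STING-MSC-CM was at least 1.61-fold above the floor of the resting MSC-CM libraries, and that of PDCD1LG2 with TLR-MSC-CM at least 1.57-fold. Each passed the thresholds of the study (unadjusted p = 0.0367 and 0.0145 by edgeR, adjusted p = 1 for both), 1 of 6 members in either case, beside 0.266% of genes for STING and 0.14% for TLR. A stricter filter on low counts removed both calls. The call of PDCD1LG2 was lost without TLR-MSC-CM of PC, and that of CD274 was lost in DESeq2 and without STING-MSC-CM of AG1, STING-MSC-CM of ORC or resting MSC-CM of ORC. Between the activated media no member passed, beside 0.203% of genes. The STING-MSC-CM library of AG1, with 11 counts of CD274, also had the largest rise over the interferon-stimulated genes (mean log2 difference 1.42, against 0.203 and 0.0945 for ORC and PC), and 10 of 53 interferon-stimulated genes passed the thresholds of the study with STING-MSC-CM. No further checkpoint ligand (15 tested), checkpoint receptor (8) or PD-L1 regulator (22) did so in chondrocytes in any of these comparisons, and of 8 LAG3 partners CIITA was lower with TLR-MSC-CM, at 0 to 1 counts against 1 to 7.

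Chondrocytes and synoviocytes were compared with each other with resting MSC-CM. PDCD1LG2 was lower in chondrocytes, with 0, 0 and 1 counts against 7, 5 and 7 (adjusted p = 0.00315 by edgeR), lower in 3 of 3 donors. This was 1 of 7 members tested, beside 8.31% of genes higher and 9.76% lower. The fit also held the macrophage libraries, through which HAVCR2 and other genes passed the filter on counts. Those libraries, with 1232 to 2086 counts of PDCD1LG2, also entered the estimate of its spread. Since PDCD1LG2 was chosen on macrophage values, its p is not independent of the choice and is a description. These shares are therefore not over the genes of chondrocytes and synoviocytes alone. CD274, with 2, 0 and 0 counts against 13, 12 and 1, did not reach the threshold (adjusted p = 0.103 by edgeR) but did in DESeq2 and without the synoviocyte library of donor PC. LAG3, CD276, NECTIN2 and VSIR differed by −0.38 to 0.36 on the log2 scale, each smaller than its SE, and HAVCR2 had at most 1 count in either. FGL1, the soluble LAG3 ligand, had 80, 13 and 91 counts in chondrocytes and 0, 3 and 0 in synoviocytes (adjusted p = 0.00185 by edgeR). LGALS3, another binding partner of LAG3, was higher in chondrocytes by 1.19 on the log2 scale (SE 0.19, adjusted p = 0.00153 by edgeR), and NECTIN1, an adhesion protein of the nectin family, was lower by 1.04, at 36.2 ± 8.68 CPM against 73.0 ± 4.84 (SD, n = 3).

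Whether the 2 cell types differed in their change with a medium was tested by an interaction term over 15266 genes. PDCD1LG2 with TLR-MSC-CM differed by 4.27 on the log2 scale (SE 1.21, unadjusted p = 0.00259, adjusted p = 0.9999 by edgeR), a fitted value that depends on the prior count because the chondrocyte control was at the floor. For STING-MSC-CM the differences were 3.01 (SE 1.57) for CD274 and 2.50 (SE 1.23) for PDCD1LG2, both with adjusted p = 1. No gene reached the adjusted threshold in either interaction (0%).

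Macrophages against synoviocytes and chondrocytes, with resting MSC-CM, are given as values. LAG3 was higher by 8.03 (SE 0.24) and 7.67 (SE 0.24) on the log2 scale. CD274 was higher than in synoviocytes by 9.57 (SE 0.50) and at least 2360-fold above the floor in chondrocytes, and PDCD1LG2 by 7.81 (SE 0.24) and at least 512-fold. HAVCR2 was at least 76.0-fold above the floor in synoviocytes and 78.9-fold in chondrocytes. CD276 was higher by 1.5 (SE 0.14) and 1.55 (SE 0.14) and NECTIN2 by 2.20 (SE 0.47) and 2.59 (SE 0.48), while VSIR was lower, by −1.69 (SE 0.13) and −1.73 (SE 0.13). By adjusted p, 36.5% of genes were higher and 35.1% lower than in synoviocytes, and 36.6% higher and 34.8% lower than in chondrocytes. Of 22 further checkpoint receptors tested, 22 were higher in macrophage cultures than in synoviocytes and than in chondrocytes, beside the T and NK cell markers given above. Over synoviocytes and chondrocytes together, only 9 of the listed receptors had enough counts to be tested. Most thus entered the present fit through macrophage counts, and nothing is read from the 22.

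Genes with the most similar pattern were sought by Pearson's r of log2(CPM + 1) among genes with at least 1 CPM in at least 3 libraries. These are descriptions over libraries that share cells and media. Over 11 macrophage libraries and 10902 genes, LAG3 was most like GNG3 (r = 0.956), PRF1 (0.938), LTA (0.935), GPR132 (0.92) and SLC38A5 (0.912). PRF1 is the perforin of cytotoxic lymphocytes and LTA the lymphotoxin gene. LAG3 was flat over these libraries apart from the TLR-MSC-CM library of donor AG1 (82.1 CPM), as given above. How far its r values rest on that library was not tested. Among the 5 genes most like CD274 were ZBTB10 (0.971), INTS2 (0.965) and VDR (0.955), and PDCD1LG2 was most like HS3ST3A1 (0.98), NPL (0.975), SUGCT (0.971), GSAP (0.966) and RHBDF2 (0.962). No gene stood in more than 1 of these lists of 5. CD274 and PDCD1LG2 lie next to each other in the horse annotation. Over 12 MSC libraries and 11400 genes LAG3 was most like RAD17 (0.95), RARRES1 (0.916), DOK1 (0.912), DDX28 (0.907) and MOXD1 (0.907). LAG3 met the filter there only through the STING agonist libraries on which it was chosen (1.67 to 14.8 CPM). These r values are thus a description, and how far they rest on the library at 14.8 CPM was not tested. In MSC with the STING agonist the neighbours of LAG3 had log2 fold changes of −0.01 (SE 0.16) for MLF2, 0.07 (SE 0.25) for PTMS, 0.28 (SE 0.33) for GPR162 and −0.57 (SE 1.47) for CD4, which was near the floor. Beside PDCD1LG2 in macrophages with STING-MSC-CM, the neighbours PLGRKT, RIC1 and ERMP1 had −0.01 (SE 0.09), 0.12 (SE 0.17) and 0.03 (SE 0.15).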

How the data were processed

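The deposited values are whole-number read counts per gene, which the authors made by trimming with cutadapt 1.12, alignment with STAR to EquCab3.0 and counting with HTSeq 0.11.0, keeping protein coding genes (20881, of which 3970 carry an Ensembl identifier only). No normalization was applied, and the 41 largest values (COL1A1, COL1A2, COL3A1, CXCL6, MMP9 and THBS1) are written with 3 digits. Whether counting used strand is not given in the sources used here.

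Genes with at least 10 counts over a fit were tested with edgeR 4.0.16 (TMM, robust quasi-likelihood test, Benjamini-Hochberg over all genes) in R 4.3.3, each cell type on its own over its 9 libraries with replicates, CpG over all 12 MSC libraries, resting MSC-CM over 3 cell types, and the interaction over 18 libraries. Steps were tested on simulated data. Joint cells came from 1 horse per type, so p-values there measure the spread between MSC donors of the medium, and for MSC the spread between donors. An exact permutation test of 3 against 3 cannot go below p = 0.1 and is not quoted.

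The members and the lists of ligands, receptors, regulators, partners, interferon genes and markers were chosen with earlier results of these data known. Named genes were all members, up to 4 genes per list and comparison with the smallest p past a call rule, ligands and receptors of the members, the 5 genes most like LAG3, CD274 and PDCD1LG2, and their annotated neighbours (names from the TB-T2T assembly). CD68, PTPRC and CIITA were named after their values were seen. Some genes that this rule would name are not reported here.

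Deviations from condition means correlated across genes within a donor (median r 0.821 in MSC, 0.676 in chondrocytes, 0.440 in macrophages, 0.0668 in synoviocytes), against medians of −0.465, −0.655, −0.233 and −0.0237 between donors. In chondrocytes the low median came from ORC, and AG1 and PC correlated with each other at 0.323 to 0.613. Since every pair of a donor was above 0.1, libraries of a donor were paired in MSC, macrophages and chondrocytes, and not in synoviocytes. The main fits held no donor term, so the SE and p-values quoted do not use this pairing. It entered the counts of donors and the fit with the donor block. The pairing comes from the donor names in the labels. Alternatives were DESeq2's size factors, other filters, DESeq2 1.42.0, the donor block and leaving out each library.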

Additional observations from a re-analysis of the deposited data

Results flagged for a closer look

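PDCD1LG2 with TLR-MSC-CM, against resting MSC-CM, moved in opposite directions between cell types in all 3 medium donors. It was lower in synoviocytes (log2 fold change −0.759) and higher in chondrocytes (3.48), and the test of that difference is given above (adjusted p = 0.9999 by edgeR). It was also lower in each donor in macrophages (−0.0607), and the difference between chondrocytes and macrophages was not tested. In chondrocytes and synoviocytes these values rest on 0 to 12 counts per library, and the chondrocyte fold change is fitted against libraries at the floor.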

How the results depend on the processing

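Counts of members past a rule stayed the same in 339 of 365 alternatives. By the thresholds of the study, the TLR3 agonist in MSC gave 1 member, 2 with DESeq2, with the donor block and over all 12 MSC libraries, and 0 to 2 when a library was left out (0 without donor PC in the agonist group or donor 92 in the untreated group, 2 without donor 92 in the agonist group). The STING agonist gave 2, and 1 to 2 without a library (1 without STING PC, untreated 92 or untreated 99), and STING against TLR3 gave 1, and 0 to 1 without a library (0 without STING 99, TLR3 92 or TLR3 99). In chondrocytes TLR-MSC-CM gave 1 and STING-MSC-CM gave 1, each 0 with edgeR's filterByExpr, the second 0 with DESeq2, and each 0 to 1 without a library. Counts in the contrasts of the STING agonist in MSC and of the media in macrophages, on which the genes were chosen, are a description and support nothing. By adjusted p, the STING agonist in MSC gave 0, and 1 with DESeq2 and with the donor block as pairing. In macrophages STING-MSC-CM gave 0 against resting MSC-CM and 1 with the donor block, and 0 against TLR-MSC-CM, 1 with DESeq2 and 2 with the donor block. Chondrocytes against synoviocytes gave 1, 2 with DESeq2, and 1 to 2 without a library (2 without the synoviocytes of donor PC). The donor block changed no other count of members. The cause of these changes was not tested.

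Of 1326 refitted fold changes of members, 1164 moved by less than the spread between replicates and 136 changed sign, none of them of a called value. Depth limits LAG3, CD274 and PDCD1LG2 outside macrophages and HAVCR2 in 3 cell types, where a few counts decide a fold change. In the joint cells all replicates of a type share 1 horse, and libraries with cytokines only or no addition have no replicate.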
